A study of Mus musculus and Sus scrofa with 12 samples.

Results

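Grem1 and Fmn1 are neighbouring genes that lie tail to tail in mouse and pig, and their shared locus was described through the histone marks of embryonic forelimbs. The 2 genes were chosen by name, and every peak that overlapped them or the 200 kb on each side was included. This gave 43 of 109190 peaks in mouse and 95 of 149652 in pig, 138 of the 258842 peaks in the 6 deposited lists. The samples were wild-type forelimbs, whole limbs with all their cell types, taken from the mouse at E11.5 and from the pig at day 23 of gestation, and no group carried an engineered allele or a treatment. Each species was profiled by ChIPmentation, which tags immunoprecipitated chromatin with a transposase, using antibodies to H3K4me3, H3K27ac and H3K4me1. The labels give 2 samples for each of the 6 combinations, and the design text gives pig H3K4me1 a single biological replicate. Each list is a consensus that holds positions without a score, so there is no spread between replicates, the depth behind a peak is unknown, and no difference below was tested. Species, stage and library cannot be told apart in any comparison of the lists.

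Grem1 encodes gremlin 1, a secreted protein that binds bone morphogenetic proteins (BMPs) outside the cell and keeps them from their receptors. In the limb bud it stands between SHH, made in posterior mesenchyme, and the fibroblast growth factors (FGFs) of the apical ectodermal ridge: by lowering BMP activity it lets the ridge keep making FGFs, which in turn sustain SHH. Fmn1 encodes formin 1, an actin nucleator, and limb deformity alleles of the mouse that disrupt Fmn1 act by damaging DNA that drives Grem1 in the limb. Enhancers of Grem1 lie in the introns of Fmn1 and in the DNA around both genes. Of the 3 marks, H3K4me3 sits at promoters, H3K27ac at promoters and enhancers in use, and H3K4me1 around promoters and at enhancers whether in use or not.

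In mouse (GRCm38), Grem1 occupies chr2:113748675-113758648 on the minus strand and Fmn1 chr2:113327664-113716768 on the plus strand. In pig (Sscrofa11.1), GREM1 occupies chr1:136617041-136629293 on the plus strand and FMN1 chr1:136696353-137163532 on the minus strand. Fmn1 is 389.1 kb long in mouse and 467.2 kb in pig, and the gap between the genes is 31.9 kb in mouse and 67.1 kb in pig. The transcription start site (TSS) of Grem1 and the 5' end of Fmn1 are thus 431.0 kb apart in mouse and 546.5 kb in pig. On the far side of Grem1, both species carry Scg5, which encodes a chaperone of neuroendocrine secretion, and then Arhgap11a.

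The promoter of Grem1 is shown first because the TSS of Grem1 carried all 3 marks in both species. The 250 bases before the annotated TSS are given 5' to 3' in the direction of Grem1 transcription, from the RefSeq assemblies, and here and below capitals mark runs of 10 or more bases that are identical and aligned between the species. Over 179 columns with a base in both species, gaps left out, 162 bases (90.5%) were identical. The shares for the sequences below count gap columns too, so this share is not on the same measure. The shared runs sit further from the TSS in mouse than in pig, so the annotated starts are not at aligned bases.
Mouse Grem1 promoter, chr2:113758649-113758898, minus strand: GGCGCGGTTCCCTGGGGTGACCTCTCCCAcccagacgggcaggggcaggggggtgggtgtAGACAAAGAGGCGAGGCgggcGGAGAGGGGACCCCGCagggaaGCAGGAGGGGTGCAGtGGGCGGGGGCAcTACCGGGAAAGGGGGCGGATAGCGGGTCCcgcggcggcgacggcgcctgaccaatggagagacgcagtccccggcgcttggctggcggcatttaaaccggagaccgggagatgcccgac
Pig GREM1 promoter, chr1:136616791-136617040, plus strand: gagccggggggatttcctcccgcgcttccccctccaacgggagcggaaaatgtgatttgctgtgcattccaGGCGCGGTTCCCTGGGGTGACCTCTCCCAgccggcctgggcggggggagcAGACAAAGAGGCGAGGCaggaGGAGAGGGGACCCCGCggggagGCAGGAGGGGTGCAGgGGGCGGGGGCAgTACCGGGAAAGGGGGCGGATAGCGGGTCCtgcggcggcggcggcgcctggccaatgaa

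An internal Fmn1 promoter is shown next, because the aligned block that holds it met peaks of all 3 marks in both species. The pig annotation has no TSS there. The mouse stretch ends just before the TSS at position 113441064, the start of Fmn1 transcript variant 4, and the aligned pig stretch lies in an FMN1 intron. The stretch shown was picked for most identical bases just before this TSS. It matched at 240 of 300 aligned columns (80.0%), against 73.2% over the whole block. The mouse stretch lay under all 3 marks, and the pig stretch under H3K4me3 and H3K27ac but not under H3K4me1.
Mouse internal Fmn1 promoter, chr2:113440740-113441029, plus strand: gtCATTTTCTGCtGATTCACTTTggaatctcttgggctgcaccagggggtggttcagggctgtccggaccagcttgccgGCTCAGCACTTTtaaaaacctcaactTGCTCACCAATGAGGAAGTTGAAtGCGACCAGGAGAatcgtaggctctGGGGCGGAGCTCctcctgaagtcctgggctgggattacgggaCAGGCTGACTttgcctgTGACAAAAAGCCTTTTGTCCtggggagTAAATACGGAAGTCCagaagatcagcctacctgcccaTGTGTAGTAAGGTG
Pig FMN1 intron, chr1:137008791-137009086, minus strand: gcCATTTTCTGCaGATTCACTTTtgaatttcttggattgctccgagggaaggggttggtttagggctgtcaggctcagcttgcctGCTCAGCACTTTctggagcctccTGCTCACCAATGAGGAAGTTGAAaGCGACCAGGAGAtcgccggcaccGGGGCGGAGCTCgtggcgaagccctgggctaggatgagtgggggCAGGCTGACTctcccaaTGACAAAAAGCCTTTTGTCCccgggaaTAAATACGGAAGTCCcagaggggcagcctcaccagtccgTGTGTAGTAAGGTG

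An intron of Scg5 held the single aligned distal element of the window with H3K27ac in both species. The stretch with most identical bases matched at 224 of 300 columns (74.7%), lies under the mouse peak and reaches partly into the pig peak, chr1:136546545-136547118. Of the shared runs in capitals, only the last as printed lies in the pig peak.
Mouse Scg5 intron, chr2:113818216-113818512, plus strand: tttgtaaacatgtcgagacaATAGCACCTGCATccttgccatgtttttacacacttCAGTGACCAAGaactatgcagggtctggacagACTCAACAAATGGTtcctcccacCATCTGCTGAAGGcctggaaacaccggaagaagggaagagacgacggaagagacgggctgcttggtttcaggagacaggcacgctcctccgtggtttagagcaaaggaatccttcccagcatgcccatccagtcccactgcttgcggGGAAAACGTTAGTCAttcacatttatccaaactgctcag
Pig SCG5 intron, chr1:136547012-136547302, minus strand: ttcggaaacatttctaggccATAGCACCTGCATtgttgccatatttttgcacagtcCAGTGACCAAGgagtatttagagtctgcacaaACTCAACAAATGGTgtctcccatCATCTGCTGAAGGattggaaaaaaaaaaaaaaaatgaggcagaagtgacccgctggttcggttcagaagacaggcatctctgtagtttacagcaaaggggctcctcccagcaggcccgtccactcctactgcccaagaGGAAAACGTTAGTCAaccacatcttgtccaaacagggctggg

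The DNA between the genes held the widest mouse H3K27ac peak of the window. The stretch shown was picked as that with most identical bases in its block, 271 of 300 columns (90.3%). The whole block of 645 columns was 81.1% identical, and all aligned sequence of the peak 77.8%. The stretch lies under that peak in mouse and under no peak of any mark in pig. Other aligned sequence of the same mouse peak lies under pig H3K4me1.
Mouse between Fmn1 and Grem1, chr2:113726788-113727083, plus strand: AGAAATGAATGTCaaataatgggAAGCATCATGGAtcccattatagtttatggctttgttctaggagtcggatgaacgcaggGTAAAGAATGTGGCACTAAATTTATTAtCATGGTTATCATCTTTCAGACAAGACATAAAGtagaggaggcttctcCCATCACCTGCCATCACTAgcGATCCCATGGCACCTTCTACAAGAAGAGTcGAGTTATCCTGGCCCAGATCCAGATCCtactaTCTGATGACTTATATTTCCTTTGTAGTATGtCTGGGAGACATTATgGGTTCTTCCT
Pig between GREM1 and FMN1, chr1:136643091-136643390, minus strand: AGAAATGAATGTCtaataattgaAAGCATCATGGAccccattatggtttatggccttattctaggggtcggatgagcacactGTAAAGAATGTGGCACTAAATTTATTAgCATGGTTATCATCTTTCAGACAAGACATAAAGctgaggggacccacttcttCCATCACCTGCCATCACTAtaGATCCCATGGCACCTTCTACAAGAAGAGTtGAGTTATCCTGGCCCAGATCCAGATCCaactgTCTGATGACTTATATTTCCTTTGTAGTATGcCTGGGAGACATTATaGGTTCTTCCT

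An element inside an Fmn1 intron is shown last. It was chosen after its values were seen, among the aligned blocks with an exon-free stretch under a distal H3K27ac peak in pig. The mouse sequence lay under H3K4me1 and under no H3K27ac. The stretch shown, that with most identical bases in its block, matched the pig sequence at 235 of 296 columns (79.4%), against 78.7% over the block.
Mouse Fmn1 intron, chr2:113654832-113655125, plus strand: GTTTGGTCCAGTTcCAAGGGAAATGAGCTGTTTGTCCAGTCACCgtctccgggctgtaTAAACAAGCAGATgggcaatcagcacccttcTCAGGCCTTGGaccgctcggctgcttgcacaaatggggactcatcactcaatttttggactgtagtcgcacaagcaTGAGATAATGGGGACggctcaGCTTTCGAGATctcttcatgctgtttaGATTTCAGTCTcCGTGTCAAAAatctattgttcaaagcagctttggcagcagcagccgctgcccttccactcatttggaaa
Pig FMN1 intron with distal H3K27ac, chr1:136778319-136778609, minus strand: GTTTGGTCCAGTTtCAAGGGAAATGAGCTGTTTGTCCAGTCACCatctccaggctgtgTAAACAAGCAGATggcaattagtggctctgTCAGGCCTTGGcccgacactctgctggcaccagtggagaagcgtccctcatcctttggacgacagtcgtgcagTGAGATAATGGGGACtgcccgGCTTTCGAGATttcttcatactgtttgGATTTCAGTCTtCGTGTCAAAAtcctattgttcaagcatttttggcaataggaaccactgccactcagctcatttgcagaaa

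Grem1 carried H3K4me3, H3K27ac and H3K4me1 at its TSS in both species. In mouse the H3K4me3 peak there was 3885 bp wide, the H3K27ac peak 2940 bp and the H3K4me1 peak 6040 bp. In pig they were 2564, 2551 and 6519 bp. A mark was assigned to a gene if one of its peaks reached to within 1 kb of any annotated TSS. By that rule all 3 marks were present at 31.6% of 21774 mouse coding genes and at 36.7% of 19510 pig coding genes, so the state itself is common. Single marks were found at more genes: H3K4me3 at 65.0% in mouse and 67.8% in pig, H3K27ac at 41.6% and 48.9%, and H3K4me1 at 54.7% and 63.9%. The same state of the 3 marks in both species was shared by 3891 other genes of 14777 with a symbol in both annotations (26.3%). Of these, 60 also had the same number of distal H3K27ac peaks as Grem1 in both species, and the first 5 by symbol were Acad9, Adam17, Akap10, Aplp2 and Atad2. By this measure the Grem1 promoter was not set apart from many others.

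Fmn1 had a marked 5' end without H3K27ac in both species. At the mouse 5' end an H3K4me3 peak of 3040 bp and an H3K4me1 peak of 4171 bp covered the TSS, and the nearest H3K27ac peak was 113 kb away. At the pig 5' end the H3K4me3 peak was 1399 bp and the H3K4me1 peak 3080 bp, and the nearest H3K27ac peak was 15.0 kb away. This state, H3K4me3 with H3K4me1 and no H3K27ac at the 5' end, was found at 15.6% of mouse and 15.8% of pig coding genes. These H3K4me3 peaks at the 5' end were narrower than the median of their lists, 3308 bp in mouse and 1682 bp in pig. At the internal promoter described next, the H3K4me3 peak was narrower still in mouse, 2307 bp, and was 1713 bp in pig.

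The acetylated promoter of Fmn1 lay inside the gene, 317 kb from the Grem1 TSS in mouse and 392 kb in pig. In mouse, H3K27ac covered chr2:113440222-113442480 and H3K4me3 chr2:113440227-113442533, over the start of transcript variant 4. The 2422-column block that aligned this sequence to pig, with 73.2% identity, lay under pig H3K27ac at chr1:137007326-137009982 and pig H3K4me3 at chr1:137008151-137009863. The mouse annotation holds 6 Fmn1 TSSs and the pig annotation 1, at the 5' end. A count over annotated TSSs alone therefore gives Fmn1 all 3 marks in mouse and 2 of 3 in pig, while the aligned block met all 3 in both. The block met pig H3K4me1 only at its edge: it ended at chr1:137009535, and that peak began at chr1:137009486. The remaining mouse TSSs, at 113405087 and near the 3' end at 113685054 and 113685090, had no peak of any mark within 1 kb. The 3' starts were 4.51 and 4.48 kb from the nearest H3K4me1 peak.

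The neighbours of Grem1 differed among themselves. Arhgap11a carried H3K4me3, H3K27ac and H3K4me1 near its TSS in both species. Scg5 had H3K4me3 without H3K27ac at its TSS in both, with H3K4me1 in pig and none within 1 kb in mouse, where the nearest H3K4me1 peak was 6.46 kb away. Ryr3, which encodes a calcium channel of internal membranes and flanks Fmn1 in mouse, had H3K4me3 alone, and Tmco5b had no mark. In pig the genes beyond FMN1 were FAM169B, with H3K4me3 alone, and PGPEP1L, with H3K27ac and H3K4me1 and no H3K4me3. H3K27ac at a TSS in this window was thus found in mouse at Grem1, Fmn1 and Arhgap11a, and in pig at GREM1, ARHGAP11A and PGPEP1L.

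**Figure D1:**
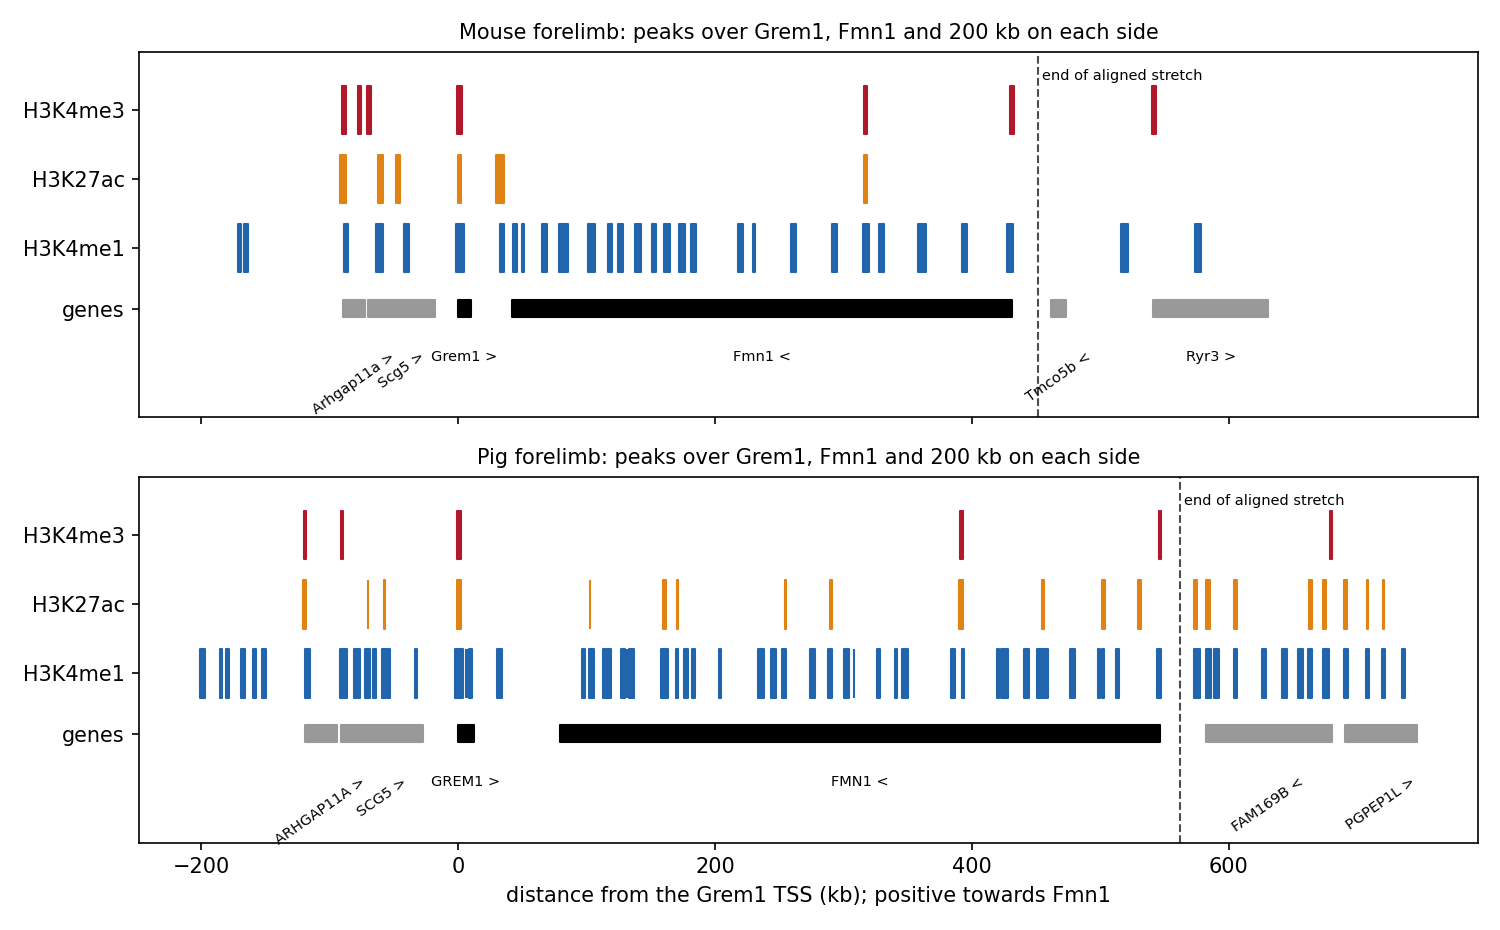
Peaks of each mark over the locus in mouse (top) and pig (bottom), by distance in kb from the Grem1 TSS, with Fmn1 to the right in both; arrows give the direction of transcription and the dashed line ends the stretch that aligned between the species. The mouse Fmn1 body shows 21 H3K4me1 peaks and 1 H3K27ac peak, the pig FMN1 body 35 and 9.

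H3K27ac was laid out differently over the locus in the 2 species, while H3K4me1 covered Fmn1 to a like extent. The window of 831.0 kb in mouse held 7 H3K4me3, 6 H3K27ac and 30 H3K4me1 peaks, and that of 946.5 kb in pig held 6, 22 and 67. Per Mb, mouse H3K27ac peaks numbered 7.22 in the window and 7.65 in the genome, and pig H3K27ac peaks 23.2 and 11.2. H3K4me1 peaks per Mb numbered 36.1 in the window and 25.7 in the genome in mouse, and 70.8 and 42.1 in pig. For H3K4me3 the window and genome values were 8.42 and 6.73 in mouse, and 6.34 and 7.53 in pig. Mouse H3K27ac was thus near its genome density here, and pig H3K4me3 was below its own. Pig H3K27ac, mouse H3K4me3, and H3K4me1 in both species were above theirs. Pig H3K27ac peaks were narrower, with a genome median of 1166 bp against 2928 bp in mouse, so counts and covered bases need not move together.

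Inside Fmn1, H3K4me1 covered 20.9% of the mouse gene and 21.5% of the pig gene, from 21 and 35 peaks. Among coding genes of at least 200 kb, the median share under H3K4me1 was 11.6% of 990 genes in mouse and 12.7% of 1241 genes in pig. As much or more was covered in 18.7% of the mouse and 28.9% of the pig genes, so Fmn1 was above the middle of long genes without being extreme. H3K27ac covered 0.581% of Fmn1 in mouse, all of it at the internal promoter, and 2.72% in pig.

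Between the genes the order was the other way round. The mouse gap held 1 H3K27ac peak that covered 20.2% of it and 1 H3K4me1 peak that covered 11.6%. The pig gap held no H3K27ac peak and 1 H3K4me1 peak that covered 5.69%. Within Grem1 itself, H3K27ac covered 24.2% of the mouse gene and 15.2% of the pig gene, and H3K4me1 44.5% and 54.6%. In the flank beside Grem1, which holds Scg5 and Arhgap11a, H3K27ac covered 5.99% in mouse and 1.82% in pig, from 3 peaks each. In the flank beside Fmn1 it covered nothing in mouse and 7.68% in pig.

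**Figure D2:**
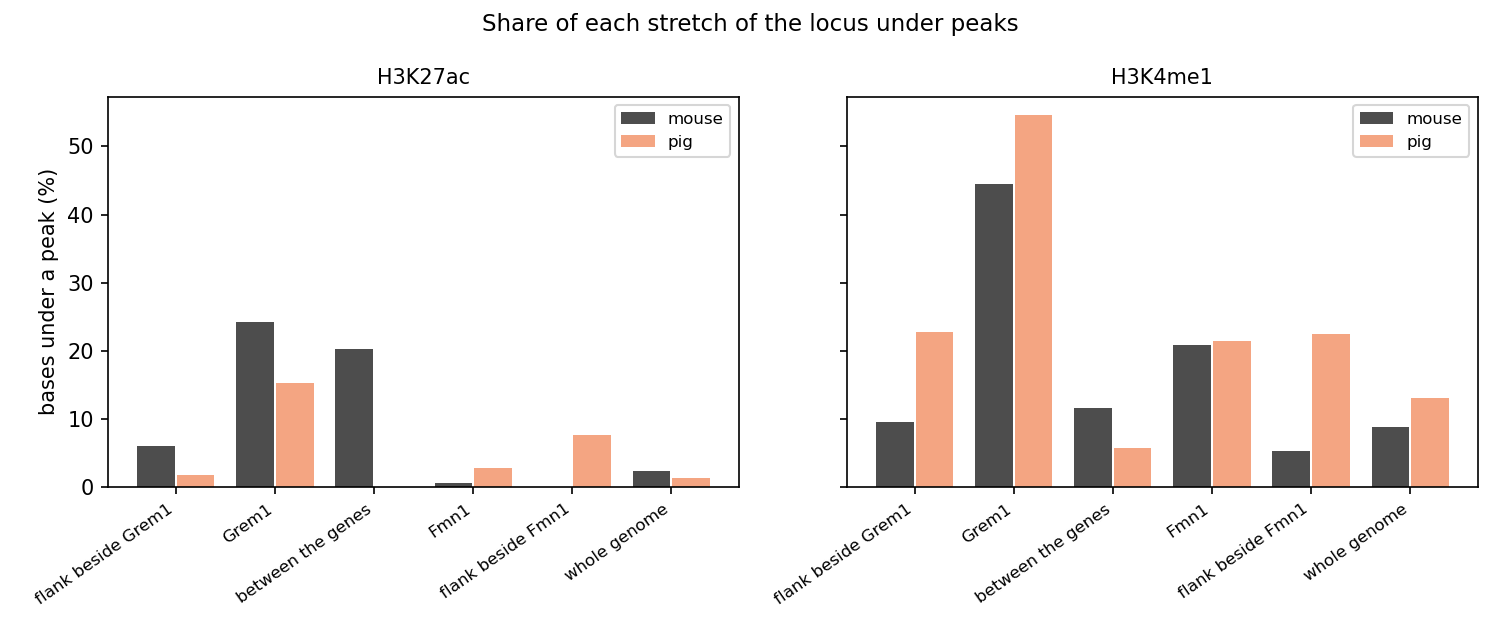
Percent of bases under H3K27ac (left) and H3K4me1 (right) peaks in each stretch of the locus and in the whole genome, for mouse (dark) and pig (light); each bar is 1 consensus list, with no error. H3K27ac between the genes was 20.2% in mouse and 0 in pig, and H3K4me1 over Fmn1 was 20.9% and 21.5%.

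The flanks beyond the 5' end of Fmn1 hold different DNA in the 2 species. Alignment of both windows at an E value of 1e-10 or lower gave 162 blocks, all inverted and all in 1 order, with a median identity of 73.7%. The aligned stretch was 617 kb long in mouse and 755 kb in pig, and it ended 20.6 kb beyond the 5' end of Fmn1 in mouse and 16.0 kb beyond it in pig. Past that point the mouse chromosome holds Tmco5b and Ryr3, whose pig counterpart RYR3 lies on chromosome 7. The pig chromosome holds FAM169B, PGPEP1L and then IGF1R, whose mouse counterparts lie together on chromosome 7. Of the 22 pig H3K27ac peaks, 13 lay in the aligned stretch and 9 beyond it, and all 6 mouse peaks lay within it. In the aligned stretch the density of H3K27ac peaks was 9.72 per Mb in mouse and 17.2 in pig, while the share of bases under them was 3.74% in mouse and 2.42% in pig. Number and covered length thus ran in opposite directions between the species, as they did over the whole genome. There H3K27ac had 7.65 peaks per Mb and 2.27% of bases covered in mouse, and 11.2 and 1.38% in pig.

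Distal H3K27ac peaks, those that overlapped neither a TSS window nor an H3K4me3 peak, numbered 3 in the mouse window and 18 in the pig window, 10 of the latter in the aligned stretch. The genome held 10303 in mouse and 15686 in pig. In mouse 2 of 3 overlapped H3K4me1, where 47.9% did over the genome, and in pig 17 of 18, where 72.2% did. With the peaks at or above each list's median width alone, 5 of 8 pig distal peaks overlapped H3K4me1. Read from the H3K4me1 side, 1 of 21 peaks over Fmn1 overlapped H3K27ac in mouse (4.76%, against 20.3% over the genome), and 8 of 35 in pig (22.9%, against 18.2%). The mouse Fmn1 body was thus below the share over all H3K4me1 peaks of its genome, and the pig body near its own. Those genome shares include H3K4me1 peaks at promoters, while most peaks over Fmn1 lay away from any TSS. The sets are therefore unlike, and a share over H3K4me1 peaks away from promoters was not computed.

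The mouse distal peaks all lay within 62.6 kb of the Grem1 TSS, and none was inside Fmn1. The peak between the genes, chr2:113722608-113729043, was 6436 bp wide and centred 32.8 kb downstream of the Grem1 TSS. It overlapped an H3K4me1 peak, and its aligned pig sequence, within chr1:136642890-136650495, lay under H3K4me1 and was 24.0 kb from the nearest pig H3K27ac peak. The other mouse peaks lay in Scg5 introns upstream of Grem1. That at chr2:113803982-113807361, centred 47.0 kb away and 3380 bp wide, had no H3K4me1, and its short aligned pig sequence was under no pig peak. That at chr2:113817131-113821225, centred 60.5 kb away and 4095 bp wide, had H3K4me1.

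This last peak is the element of the Scg5 intron shown above. Its pig counterpart, chr1:136546545-136547118, was 574 bp wide, also overlapped H3K4me1, and was centred 70.2 kb from the GREM1 TSS. The block that joined them had 790 columns and 70.8% identity. The other pig SCG5 peak, chr1:136559353-136559928, had aligned mouse sequence under no peak. That sequence was 2.71 kb from the nearest mouse H3K27ac peak and 0.165 kb from the nearest mouse H3K4me1 peak.

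Inside pig FMN1 there were 8 distal H3K27ac peaks, from 103 to 531 kb downstream of the GREM1 TSS and from 526 to 2163 bp wide. Those at chr1:136719383-136719908, chr1:136787547-136788351 and chr1:136871891-136872449 overlapped H3K4me1 and had no aligned mouse sequence. That at chr1:137146618-137148581, which overlaps an exon, had neither H3K4me1 nor aligned mouse sequence. The other 4 overlapped H3K4me1 and were aligned. Among them were chr1:136776803-136778748, the element shown above, and chr1:137071769-137072929, both in introns, and chr1:137118562-137120724, which overlaps an exon.

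In all 4 of these aligned elements, the mouse sequence lay under H3K4me1. None lay under mouse H3K27ac, which the choice of elements fixes, since mouse Fmn1 held no distal H3K27ac peak. For the 3 elements given by position, the nearest mouse H3K27ac peaks were 67.4, 42.3 and 74.4 kb away. For scale, 38.2% of the 102 aligned blocks inside Fmn1 lay under mouse H3K4me1 and 0.980% under mouse H3K27ac, and on the pig side 44.1% and 4.90%. The internal promoter was the aligned sequence inside Fmn1 with H3K27ac in both species.

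H3K4me1 was shared over most of the aligned elements of Fmn1. Of 21 mouse H3K4me1 peaks over the gene, 20 had aligned pig sequence, and 14 of these lay under pig H3K4me1 (70.0%). Of 35 pig H3K4me1 peaks, 30 had aligned mouse sequence and 17 lay under mouse H3K4me1 (56.7%). Over the whole locus, 62.3% of the 53 blocks under mouse H3K4me1 were also under pig H3K4me1, against 26.6% of the 109 blocks outside it. The blocks under mouse H3K4me1 were longer, with a median of 419.0 columns against 345.0, and the part of length in this difference was not tested.

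Of the 6 mouse H3K27ac peaks, all had aligned pig sequence, and in 4 it lay under pig H3K27ac. These were the promoters of Grem1 and Arhgap11a, the internal Fmn1 promoter and the Scg5 element. Of the 13 pig H3K27ac peaks of the aligned stretch, 9 had aligned mouse sequence, and the same 4 lay under mouse H3K27ac.

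**Figure D3:**
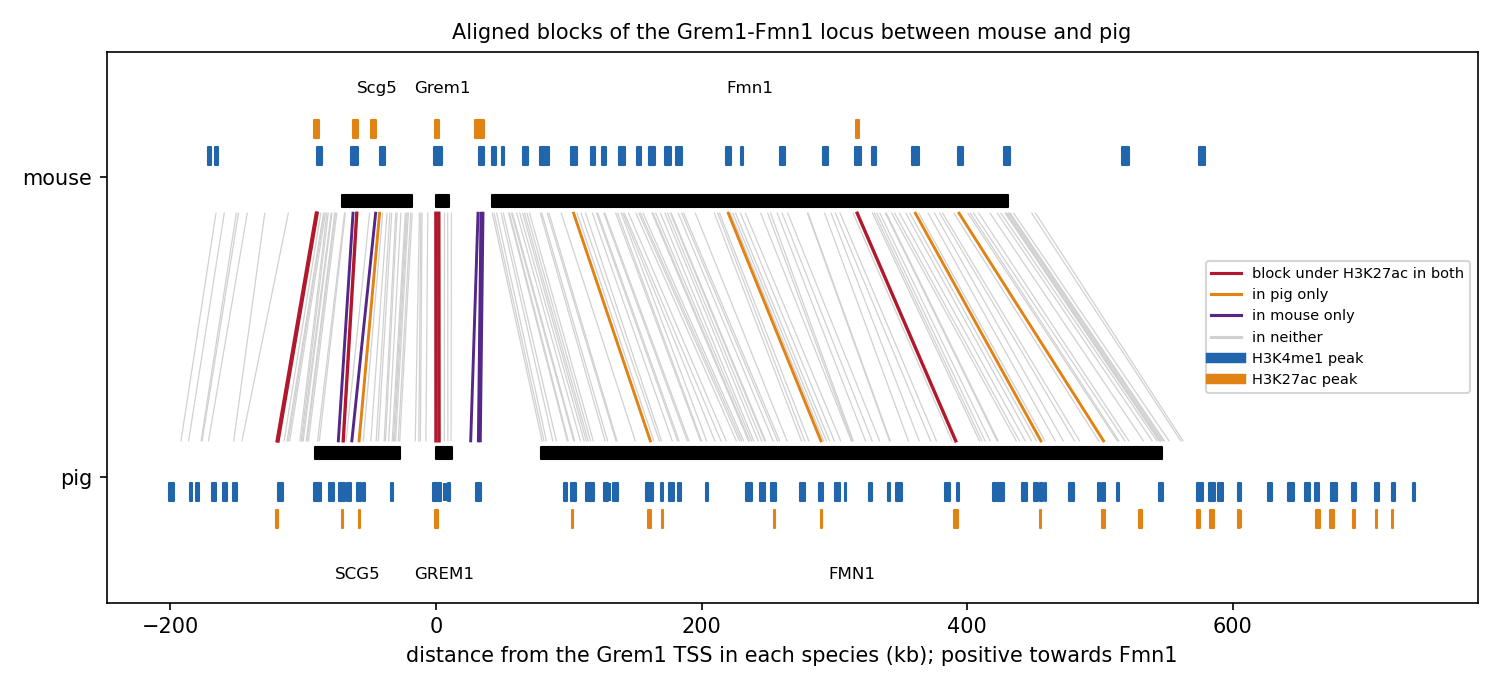
Lines join the 162 aligned blocks between mouse (top) and pig (bottom), each placed by its distance in kb from the Grem1 TSS, with H3K4me1 and H3K27ac peaks drawn beside the genes. Blocks under H3K27ac in pig alone (orange lines) reach into Fmn1 at 4 places and also lie in Scg5. Blocks under H3K27ac in mouse alone (purple) lie between the genes and in Scg5.

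Among all coding genes, the number of distal H3K27ac peaks within 200 kb of the gene body was somewhat above the median for Grem1 and high for pig FMN1. Grem1 and Fmn1 each had 3 in mouse, where the median gene had 2.00 and 37.9% of genes had as many or more. By bases covered instead of number, 12.0% of mouse genes had as much or more as either gene. GREM1 had 5 in pig (26.0% of genes with as many or more) and FMN1 had 18 (0.559%). FMN1 is long and its window takes in the flank with FAM169B and PGPEP1L. With the peaks beyond the aligned stretch left out it had 10, and 5.81% of genes had as many or more. The counts of the other genes were not cut in this way, so this share is not on a like measure. Counted within 200 kb of the 5' TSS, so that each gene had an equal window, 2.54% had as many or more as FMN1, while mouse Fmn1 had none. Of the 11 pig peaks in that window, 8 lay beyond the aligned stretch, in DNA that does not adjoin Fmn1 in mouse, and 3 within it.

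**Figure D4:**
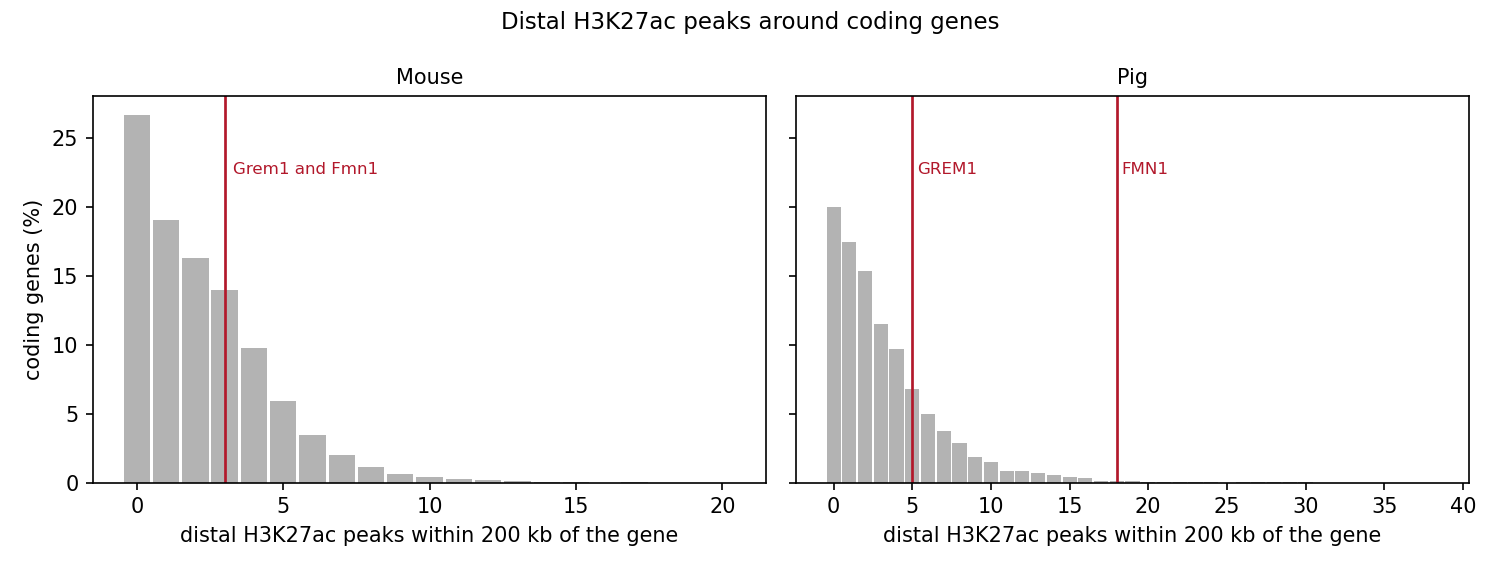
Percent of coding genes (vertical axis) by number of distal H3K27ac peaks within 200 kb of the gene body (horizontal axis) in mouse and pig, with red lines at Grem1 and Fmn1. Both mouse genes stand at 3, GREM1 at 5 and FMN1 at 18.

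Short motifs of factors known to act on Grem1 or in its pathway were searched on both strands of the central 300 bases of each distal H3K27ac peak. None of the 4 motifs is contained in another. The GLI motif TGGGTGGTC was in 0 of 3 mouse and 0 of 18 pig windows of the locus, and in 0.320% and 0.402% of all distal peaks. The SMAD motif GTCTAGAC was also in none, with 0.398% and 0.255% over the genome. CATCTG, an E-box of the kind bound by HAND2, was in 2 of 3 mouse and 3 of 18 pig windows, against 24.4% and 26.9%. The posterior HOX motif TTTATGG was in 0 of 3 and 1 of 18, against 3.55% and 2.59%. In the printed sequences, CATCTG occurred 1 time in each species in the Scg5 intron and 1 time in each in the Fmn1 intron element. In the Scg5 intron it falls in a shared run, which in pig lies outside the H3K27ac peak. TTTATGG occurred 1 time in each species between the genes.

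The partners of Grem1 in the limb signalling loop were read from a list of 21 genes. H3K27ac lay at a TSS of 16 in each species, beside 41.6% of all coding genes in mouse and 48.9% in pig, and H3K4me3 at 19 in mouse and 18 in pig, beside 65.0% and 67.8%. H3K4me1 lay at 10 in mouse and 17 in pig, beside 54.7% and 63.9%, and all 3 marks at 7 and 14, beside 31.6% and 36.7%. Shh, Fgf4, Fgf8 and Fgf17, ligands made by small groups of cells at the posterior margin or in the ridge, had no H3K27ac at a TSS in either species. Fgf9, another ridge FGF, had all 3 marks in both. Fgf10, the mesenchymal FGF, lacked it in pig and had it in mouse, and Bmp7 the reverse. The responders Gli1, Ptch1, Etv4, Etv5, Spry4 and Msx2 had H3K27ac and H3K4me3 in both.

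Among 16 secreted BMP antagonists, 4 carried all 3 marks in mouse and 7 in pig, beside 31.6% and 36.7% of all coding genes. The mouse genes were Grem1, Fst, Dand5 and Sostdc1. Grem1 and Fst, which encodes the activin and BMP binder follistatin, had all 3 in both species. H3K27ac lay at 6 of the 16 in mouse and 9 in pig, beside 41.6% and 48.9%. Among 15 formins, of which 13 were found in the pig annotation, H3K27ac lay at 8 in mouse and 9 in pig, and all 3 marks at 4 in each, beside the same shares of all genes. The mouse formins with all 3 were Fmn1, Daam2, Fhod1 and Fmnl3.

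The forelimb label was checked against marker genes by H3K27ac at a TSS, which 41.6% of all mouse and 48.9% of all pig coding genes carried. It was present at 8 of 8 limb mesenchyme markers in mouse and 7 of 8 in pig, Prrx1 being without it in pig. It was absent from the hindlimb genes Pitx1 and Tbx4, from 5 endothelial and from 4 neural crest and glial markers in both species. It was present at 1 of 6 ectoderm markers in mouse and 1 of 4 found in pig, at 2 of 5 and 0 of 5 blood markers, at 2 of 5 and 1 of 5 muscle precursor markers, and at 1 of 4 kidney epithelium markers in each. The part of such cells in the peaks of the locus was not tested.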

How the data were processed

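The 12 samples gave 6 peak lists, 1 for each species and mark. Per the series' design text, reads were 50 bp long after cropping where needed, mouse reads were aligned to GRCm38 and pig reads to Sscrofa11.1, and broad peaks were kept at an IDR below 0.01. The submitters' processing notes name Bowtie2 2.3.5, Trimmomatic 0.39, deepTools 3.5, SAMtools 1.9 and FastQC 0.11.9. Which program called the peaks is not stated there. The lists the authors deposited hold chromosome, start and end, a consensus over replicates with no score or depth.

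Peaks were read with Python 3.11.15 and placed on RefSeq genes of the same assemblies (coding genes with 1 record on assembled chromosomes), and an overlap of 1 bp counted. Locus sequences were aligned with blastn 2.17.0 (repeats masked, E value 1e-10) and read with samtools 1.23.1. The 250 bases printed for mouse Grem1 match the RefSeq promoter table, and the overlap code was tested on simulated intervals. No statistical test was run, since each group is 1 list. Genes of the window, all distal H3K27ac peaks, gene lists and motifs were named by a fixed rule, and the sequences of the internal promoter, the gap and an Fmn1 intron were added after their values were seen. A further element inside Fmn1 is counted but not reported here by position or sequence. The members and lists were chosen with earlier results of these data known.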

Additional observations from a re-analysis of the deposited data

How the results depend on the processing

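Of 74 alternative values, 52 stayed within 1.5 times the reported one (or, for marks at a TSS, were equal to it) and 22 moved. Grem1 kept all 3 marks in both species under every alternative tried. For Fmn1, taking the 5' end alone gave 2 of 3 marks in mouse, and keeping the peaks at or above each list's median width gave 1 in mouse and 1 in pig. With those wider peaks the window held 3 H3K4me3 peaks in mouse and, in pig, 3 H3K4me3, 12 H3K27ac and 36 H3K4me1 peaks, and 5 distal pig H3K27ac peaks had H3K4me1. The genes and the DNA between them alone held 3 H3K4me3 and 3 H3K27ac peaks in mouse and 3 H3K4me3, 10 H3K27ac and 40 H3K4me1 peaks in pig. Flanks of 500 kb gave 13 H3K4me3 and 44 H3K27ac peaks in pig. Ending the window at the last aligned base, an alternative chosen after seeing the data, left 13 pig H3K27ac peaks. The counts of mouse H3K27ac peaks with aligned pig sequence and with pig H3K27ac on it stayed within 1.5 times under all 4 alternatives. Ranked by bases covered, 12.0% of genes had as much distal H3K27ac as mouse Grem1, 12.0% as mouse Fmn1 and 0.149% as pig FMN1. Within 200 kb of the 5' TSS the shares were 100% for mouse Fmn1 and 2.54% for pig FMN1. In the window around the whole gene, the share for pig FMN1 without its peaks beyond the aligned stretch was 5.81%, against uncut counts of the other genes. The cause of these shifts was not tested. No paired analysis was possible because each group is 1 consensus list and no result comes from a test.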

Other observations

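The pig DNA that adjoins the 5' end of FMN1 was aligned to its mouse counterpart around Fam169b and Pgpep1l on chromosome 7, an alignment chosen after seeing the data. At an E value of 1e-10 or lower, 26 co-linear blocks joined the pig flank to chr7:68237640-68357356 (GRCm38). Of the 9 pig H3K27ac peaks in that flank, 2 had aligned mouse sequence. One was the PGPEP1L promoter peak, chr1:137307239-137309099, whose mouse sequence had no mark. The other, chr1:137279874-137282323 in a FAM169B intron, had mouse sequence under H3K4me1 and no H3K27ac. The aligned mouse stretch of 120 kb held 4 H3K27ac peaks of its own, none of them on sequence aligned to a pig H3K27ac peak.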
